A study of Mus musculus with 6 samples.

Results

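Clusterin and the heat shock chaperones are described here by 10 genes: Clu, Hspb1, Hspb8, Cryab, Hspa1a, Hspa1b, Hspa8, Hsp90aa1, Hsph1 and Dnajb1. They were found by gene symbol among the 54532 genes of the deposited count table, and all 10 had a row. The set was chosen by measured values: Clu and Hspb1 were picked because their fold changes moved when 1 library was left out. Among the members at 5 CPM or more theirs moved most, and the scarcer Cryab moved further. Their fold changes are therefore given as a description, with no test. The other 8 genes were added as members of the same protein quality control system.

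RNA was sequenced from P19 cells, a mouse embryonal carcinoma line that forms neural cells when given retinoic acid. There were 3 libraries from cells transfected with an siRNA against Baf45d and 3 from cells transfected with a negative control siRNA, called NC. Both groups received the siRNA with a Lipofectamine reagent and were collected after 5 days of retinoic acid, and no untreated or undifferentiated cells were part of the comparison. The labels call the 3 libraries of a group biological replicates without saying what separates them, so the p-values measure the spread between these samples.

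Chaperones bind unfolded or partly folded proteins and keep them from aggregating. Small heat shock proteins, such as HSPB1, HSPB8 and alpha B-crystallin, hold unfolded proteins without using ATP, while the HSP70 machine, driven by J-domain proteins and nucleotide exchange factors, and the HSP90 machine use ATP to fold them. Clusterin is a secreted glycoprotein that acts as a chaperone outside the cell. When cells are stressed, heat shock factor 1 binds heat shock elements, which are inverted repeats of the triplet GAA, and raises transcription of many of these genes.

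Library totals lay between 17127876 and 18499169 counts in the Baf45d libraries and between 17767104 and 21224822 counts in the NC libraries. Dpf2, the gene that encodes BAF45D, stood at 145.6 ± 3.68 CPM in Baf45d libraries and 155.9 ± 1.75 CPM in NC libraries (SD, n = 3 each), with a log2 fold change of -0.10 (SE 0.07) and an edgeR adjusted p of 0.996. CPM is the count divided by the TMM-adjusted size of its library. The 3 Baf45d libraries were below the 3 NC libraries in Dpf2, as in 4.3% of all genes tested. The difference did not pass the test, and the group names below are those of the labels. Baf45d replicate 3 stood apart in Gapdh, a gene looked up after its values were seen because the treatment text also lists a gapdh siRNA that the labels assign to no library. Gapdh was at 23.9, 14.0 and 236.2 CPM in Baf45d replicates 1 to 3, against 21.5, 31.2 and 27.1 CPM in NC replicates 1 to 3. Whether every library received the siRNA of its label was not tested, and the group means below hold only for the labels as given. Sequence that Gapdh may share with other genes was not checked, so its level is uncertain. The link of Gapdh to the chaperone values was not tested, and results that rest on Baf45d replicate 3 are given with and without it. Of the marker lists, all 12 neuron genes and all 10 neural progenitor genes passed the filter on low counts. Of the 8 pluripotency genes 5 passed it, while Zfp42, Dppa3 and Dppa5a had 0 counts. The pluripotency list summed to 11.5 to 14.4 CPM in Baf45d libraries and 10.7 to 14.1 CPM in NC libraries.

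The promoter sequences below are shown because the members differed widely in level although most of the promoters at hand carry a heat shock element. RefSeq promoter entries on GRCm38.p6, from 250 bases before to 50 after a transcription start, were matched by symbol for 6 of the 10 members (Hspb1, Hspb8, Hspa1a, Hspa1b, Hsph1 and Dnajb1), with 8 promoters in all. Clu, Cryab, Hspa8 and Hsp90aa1 had no entry. Capitals mark GAANNTTC, and each line reads 5′ to 3′ on the gene's own strand. The Hspb1 window (chr5:135887777-135887854, plus strand) runs from base -142 to base -65 and holds 2 such elements. The Hspa1b window (chr17:34959310-34959367, minus strand) and the Hspa1a window (chr17:34972228-34972285, minus strand) run from base -129 to base -72 and hold 1 element each.
Hspb1: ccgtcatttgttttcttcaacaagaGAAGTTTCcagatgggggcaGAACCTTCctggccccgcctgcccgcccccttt
Hspa1b: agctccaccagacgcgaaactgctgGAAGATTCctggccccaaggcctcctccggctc
Hspa1a: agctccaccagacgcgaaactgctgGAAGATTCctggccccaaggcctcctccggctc

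The Hspa1a and Hspa1b windows are the same in every base shown, and their promoter entries were identical at 296 of 300 bases. The search covered GAANNTTC and TTCNNGAA, each of which reads the same on both strands, and the 2 can overlap each other. Either motif was found in 6 of the 8 member promoters, against 15.1% of all 32851 promoters of the same length. These 6 include 2 overlapping entries of Hsph1 and the near-identical pair Hspa1a and Hspa1b, so they are not 6 separate sequences. Hspb8 held GAANNTTC just after its start, Hsph1 held both motifs, and Dnajb1 held neither within this window. A match describes letters in a window and does not show a bound site.

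Per length of transcript, the members spanned the range from abundant to almost unread. FPKM, counts scaled for gene length and library depth as the authors deposited them, were used for this order. Over all 6 libraries Hspa8, the constitutive cytosolic HSP70, averaged 290.2 FPKM with a range of 247.2 to 348.7. Hsp90aa1, the stress-inducible cytosolic HSP90, followed at 229.5 FPKM with a range of 194.3 to 266.6. These 2 ranges overlapped, so their order is not fixed by these libraries. Hspb1 came next at 85.1 FPKM (50.2 to 108.2) and did not overlap either neighbour. Dnajb1, Clu and Hsph1 lay close together at 26.0, 23.4 and 20.8 FPKM on average, and the neighbours in this order overlapped. Hspb8 averaged 13.9 FPKM (9.25 to 17.6), below the ranges of Dnajb1 and Hsph1, while its range overlapped that of Clu.

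The lowest members were Cryab at 1.71 FPKM (0.716 to 3.42), Hspa1b at 0.219 FPKM (0.101 to 0.298) and Hspa1a at 0.0127 FPKM (0 to 0.0376). Both major stress-inducible HSP70 genes were therefore the least read members in cells of both groups. Their transcripts share most of their sequence, and how reads matching several genes were counted is not given in the sources used here, so these 2 levels are uncertain. Summed over the 10 members, CPM came to 2169, 2825 and 3025 in Baf45d replicates 1 to 3, against 2355, 2468 and 2730 in NC replicates 1 to 3. Hspa8 and Hsp90aa1 together made up 83.9 to 86.6% of that sum in Baf45d libraries and 80.8 to 81.7% in NC libraries. That sum holds Clu and Hspb1, which were picked on this contrast, so no difference between the groups is read from these shares.

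**Figure D1:**
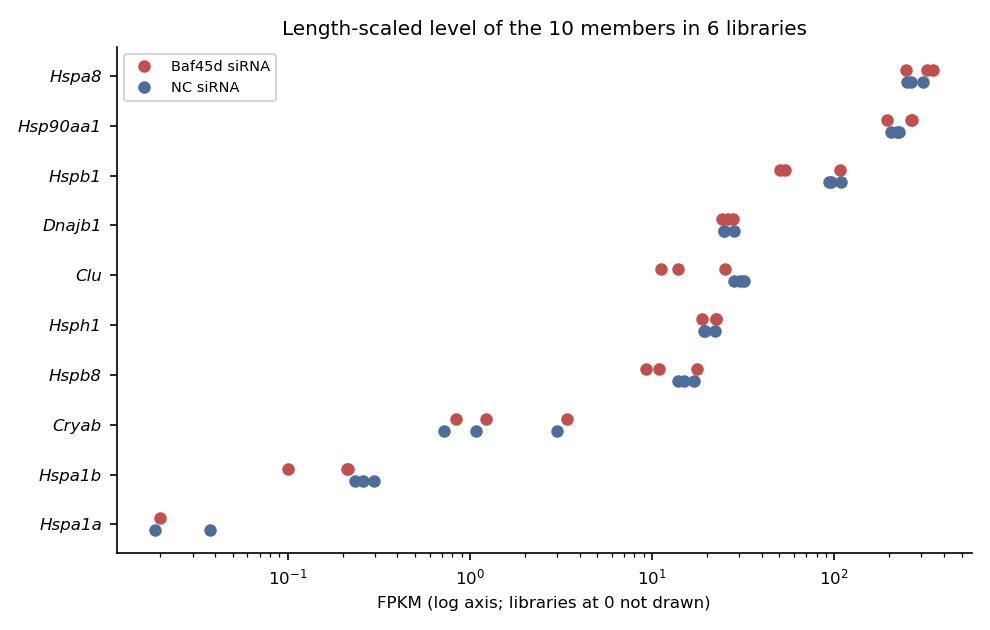
Deposited FPKM of each member (log axis) in the 3 Baf45d libraries (red, upper row of each gene) and the 3 NC libraries (blue, lower row), ordered by the mean over all 6 libraries. Levels run from 0.0127 FPKM on average for Hspa1a to 290.2 FPKM for Hspa8, and libraries listed at 0 are not drawn.

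No member passed the test between the groups, and neither did any other gene. Of 16078 genes that passed the filter on low counts, the edgeR quasi-likelihood test called 0 at an adjusted p under 0.05, which is 0% of those tested; 459 had an unadjusted p under 0.05, and DESeq2 and limma-voom also called 0. Of the 10 members, 9 passed the filter and Hspa1a did not. Among the 9, 5 log2 fold changes were above 0 and 4 below, with a median of 0.01 against 0.007 for all genes tested. In bulk RNA, fewer cells of a type and less RNA per cell cannot be told apart, and this holds for every level below.

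In 2 of the 9 tested members, Clu and Hspa1b, all 3 Baf45d libraries were below all 3 NC libraries, as in 4.3% of all genes tested. All 3 Baf45d libraries were above all 3 NC libraries in 0 of the 9 members, against 3.74% of all genes tested. Because Clu was picked on this contrast, nothing about the set is read from these counts.

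Clu (ENSMUSG00000022037, chr14:65968483-65981547, plus strand, GRCm38) encodes clusterin. It stood at 38.5, 48.1 and 86.6 CPM in Baf45d replicates 1 to 3, against 104.5, 110.7 and 97.3 CPM in NC replicates 1 to 3. Baf45d replicates 1 and 2 were low, Baf45d replicate 3 was close to the NC libraries, and the groups did not overlap. The counts behind these levels were 678, 810 and 1591 in Baf45d libraries and 1866, 2358 and 1739 in NC libraries, so the 95% Poisson interval of Baf45d replicate 3, 82.4 to 91.0 CPM, stayed below that of the lowest NC library, 92.8 to 102.0 CPM. Such intervals cover counting error only.

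Group means of Clu were 57.7 ± 25.5 CPM in Baf45d libraries and 104.2 ± 6.69 CPM in NC libraries (SD, n = 3 each). The log2 fold change was -0.85 (SE 0.26). Set against the NC library of the same number, the Baf45d libraries held 36.8, 43.5 and 89.0% of its level. No stretch of 31 bases in Clu transcripts occurs in the annotated transcripts of another gene. Only exact matches in the sense direction were searched, and how reads were assigned is not given in the sources used here.

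Among the small heat shock proteins, Hspb1 and Hspb8 had the same uneven pattern within the Baf45d group. Hspb1 (ENSMUSG00000004951, chr5:135887919-135889563, plus strand), which encodes HSP25, the mouse form of HSP27, was at 55.7, 52.1 and 111.6 CPM in Baf45d replicates 1 to 3. It was at 97.2, 99.8 and 112.1 CPM in NC replicates 1 to 3. Baf45d replicates 1 and 2 were below every NC library, while Baf45d replicate 3 was level with the highest, so the groups overlapped.

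Hspb1 averaged 73.1 ± 33.4 CPM in Baf45d libraries and 103.1 ± 7.98 CPM in NC libraries (SD, n = 3 each), a log2 fold change of -0.49 (SE 0.28). The Baf45d libraries held 57.3, 52.2 and 99.6% of the level in the same-numbered NC library. Of the 31-base stretches of Hspb1, 52.3% also occur in the pseudogene Hsp25-ps1, which had 1 to 3 counts in the Baf45d libraries and 2 counts in each NC library. How reads shared by both were counted is not stated, so the level of Hspb1 is uncertain.

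Hspb8 (ENSMUSG00000041548, chr5:116408491-116422864, minus strand) encodes the small heat shock protein that works with BAG3 in selective autophagy. Its level was 18.2, 21.3 and 34.4 CPM in Baf45d replicates 1 to 3, against 27.2, 29.5 and 33.1 CPM in NC replicates 1 to 3. Baf45d replicates 1 and 2 were below all NC libraries, as for Hspb1, and Baf45d replicate 3 was above them. Group means were 24.6 ± 8.62 CPM in Baf45d libraries and 29.9 ± 3.01 CPM in NC libraries (SD, n = 3 each), with a log2 fold change of -0.28 (SE 0.21) and an edgeR adjusted p of 0.996. None of its 31-base stretches occurs in the annotated transcripts of another gene.

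Cryab (ENSMUSG00000032060, chr9:50751325-50756636, plus strand), which encodes alpha B-crystallin, was scarce and went with the replicate number. It was at 1.82, 1.25 and 5.06 CPM in Baf45d replicates 1 to 3 (32, 21 and 93 counts), against 1.06, 1.60 and 4.48 CPM in NC replicates 1 to 3 (19, 34 and 80 counts). Both libraries numbered 3 were high and the other 4 low. The log2 fold change was 0.20 (SE 0.62), with an edgeR adjusted p of 0.997, and it was below 0 without Baf45d replicate 3 (-0.62). Cryab overlaps Hspb2, which runs on the other strand, by 1030 bases. Hspb2 had 0 to 2 counts per library, and the use of strand in counting is not given in the sources used here.

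The small heat shock protein list held 9 genes, of which 5 were tested and 0 passed in either direction. Their median log2 fold change was -0.08, against 0.007 for all genes tested. It was -0.60 without Baf45d replicate 3, which is the value of Hspb8, and -0.48 without both libraries numbered 3. The 5 tested genes include Hspb1, which was chosen for such a shift, so nothing about the family is read from these medians. Of the 2 tested genes that are no members, Hspb6 had a log2 fold change of -0.08 (SE 0.15) and Hspb9 one of 0.02 (SE 0.48), both with an edgeR adjusted p above 0.99. Hspb6 was at 9.53, 9.80 and 8.11 CPM in Baf45d libraries and 10.4, 10.0 and 8.62 CPM in NC libraries, so the low values of Baf45d replicates 1 and 2 were not seen in it. Hspb3 and Cryaa had 0 counts in all 6 libraries. The list summed to 85.9, 84.8 and 160.3 CPM in Baf45d replicates 1 to 3 and to 136.8, 141.5 and 159.0 CPM in NC replicates 1 to 3.

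**Figure D2:**
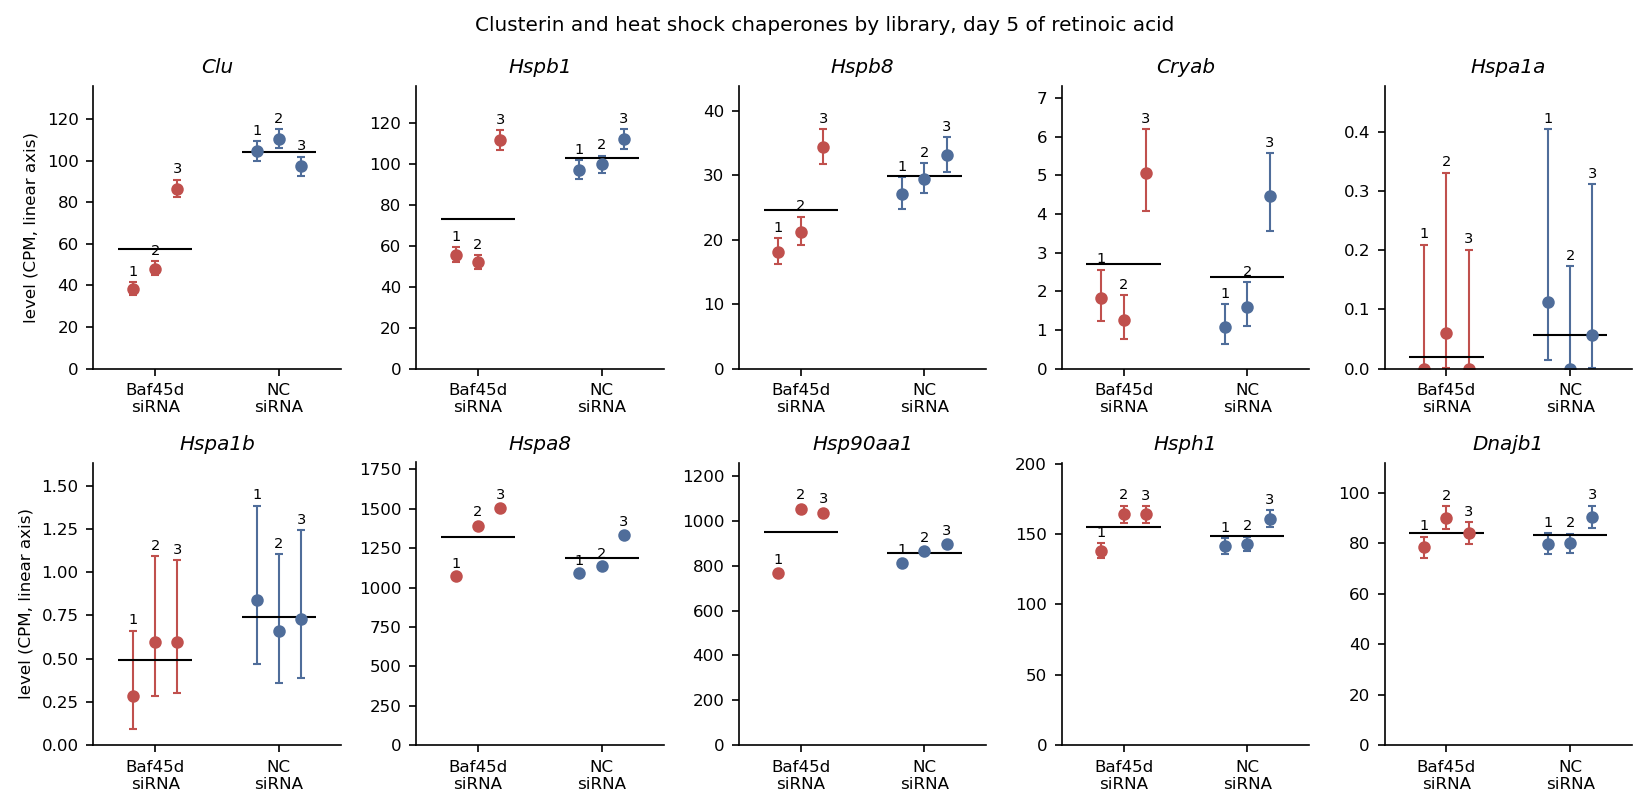
Level of each member in CPM (linear axis from 0) in Baf45d replicates 1 to 3 (red, left) and NC replicates 1 to 3 (blue, right); numbers name the replicate, error bars are 95% Poisson intervals for counting error and black lines are group means. Clu, Hspb1 and Hspb8 were low in Baf45d replicates 1 and 2 and near the NC libraries in Baf45d replicate 3, Cryab was high in both libraries numbered 3, and Hsph1 and Dnajb1 varied little.

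The inducible HSP70 pair was close to the detection floor. Hspa1a (ENSMUSG00000091971, chr17:34969190-34972156, minus strand) had 0, 1 and 0 counts in Baf45d replicates 1 to 3 and 2, 0 and 1 in NC replicates 1 to 3. A count of 0 allows up to 3 counts, or 0.141 to 0.178 CPM across the 6 libraries. It was not tested and no fold is given, because both groups are at or under that floor.

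Hspa1b (ENSMUSG00000090877, chr17:34956436-34959238, minus strand) had 5, 10 and 11 counts in Baf45d replicates 1 to 3 and 15, 14 and 13 in NC replicates 1 to 3. That was 0.492 ± 0.181 CPM in Baf45d libraries and 0.741 ± 0.0921 CPM in NC libraries (SD, n = 3 each). The groups did not overlap, but the log2 fold change of -0.58 (SE 0.40) had an edgeR adjusted p of 0.996. Hspa1b shares 67.6% of its 31-base stretches with Hspa1a, so the pair was also summed before the fit. The sum had a log2 fold change of -0.63 (SE 0.41) and an edgeR adjusted p of 0.996.

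The abundant ATP-driven chaperones did not follow the pattern of Clu. Hspa8 (ENSMUSG00000015656, chr9:40800984-40810087, plus strand) was at 1070, 1394 and 1502 CPM in Baf45d replicates 1 to 3, against 1090, 1134 and 1333 CPM in NC replicates 1 to 3. Baf45d replicate 1 was the lowest of all 6 libraries and Baf45d replicates 2 and 3 the highest, so the groups overlapped. The log2 fold change was 0.16 (SE 0.13), with an edgeR adjusted p of 0.996, and it was 0.05 without Baf45d replicate 3.

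Hsp90aa1 (ENSMUSG00000021270, chr12:110690605-110702728, minus strand) was at 768.5, 1054 and 1036 CPM in Baf45d replicates 1 to 3, against 813.4, 868.0 and 898.4 CPM in NC replicates 1 to 3. The order of the Baf45d libraries against NC was like that of Hspa8, with replicate 1 lowest and replicates 2 and 3 highest. Its log2 fold change was 0.15 (SE 0.12), with an edgeR adjusted p of 0.996, and it was 0.08 without Baf45d replicate 3. Of the 31-base stretches, 43.5% in Hspa8 and 51.4% in Hsp90aa1 also occur in other genes, mostly the pseudogenes Gm15459 and Gm12346. Gm15459 had 0 counts in every library, and Gm12346 had 141 to 208 counts in Baf45d libraries and 176 to 218 in NC libraries.

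Their partners differed least between libraries. Hsph1 (ENSMUSG00000029657, chr5:149614287-149636376, minus strand) encodes the HSP110 that exchanges nucleotide on HSP70. It averaged 155.3 ± 14.9 CPM in Baf45d libraries and 148.4 ± 10.8 CPM in NC libraries (SD, n = 3 each), with a log2 fold change of 0.07 (SE 0.09) and an edgeR adjusted p of 0.996, and 0.03 without Baf45d replicate 3. Dnajb1 (ENSMUSG00000005483, chr8:83608193-83612653, plus strand) encodes HSP40, the J-domain protein that hands unfolded proteins to HSP70. It averaged 84.0 ± 5.79 CPM in Baf45d libraries and 83.3 ± 6.12 CPM in NC libraries (SD, n = 3 each), with a log2 fold change of 0.01 (SE 0.09) and an edgeR adjusted p of 0.997. Neither Hsph1 nor Dnajb1 shares more than 0.412% of its sequence stretches with another gene.

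The dependence of Clu and Hspb1 on 1 library was the reason for choosing them and is described in that sense. Without Baf45d replicate 3, the log2 fold change of Clu was -1.27 and that of Hspb1 was -0.94. Leaving out any other single library gave -0.90 to -0.63 for Clu and -0.53 to -0.30 for Hspb1. Without Baf45d replicate 3, edgeR called 36 of 16366 genes lower, or 0.22%. Without both libraries numbered 3, it called 18 of 16149 genes lower, or 0.111%, and the log2 fold changes were -1.31 for Clu and -0.86 for Hspb1. Since these fits were used to choose Clu and Hspb1, no call is given for either gene.

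Hspb8 came next after Clu and Hspb1 in the size of this shift among the members at 5 CPM or more. Its log2 fold change was -0.60 without Baf45d replicate 3, with an edgeR adjusted p of 0.0817. Among 11712 genes at 5 CPM or more, the size of the shift on leaving out Baf45d replicate 3 was at the 99.3rd percentile for Hspb1, the 99.2nd for Clu and the 98.6th for Hspb8. It was at the 73.5th percentile for Hspa8, the 54.4th for Hsp90aa1, the 37.1st for Hsph1 and the 1.14th for Dnajb1. The places of Clu and Hspb1 follow from how they were chosen. That of Hspb8 comes from the same fits, so it is no separate evidence for the shift. Cryab and Hspa1b were under 5 CPM and have no percentile. Baf45d replicates 1 and 2 were both below the other 4 libraries in Clu, Hspb1, Hspb8 and Hspa1b, as in 13.9% of all genes tested.

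**Figure D3:**
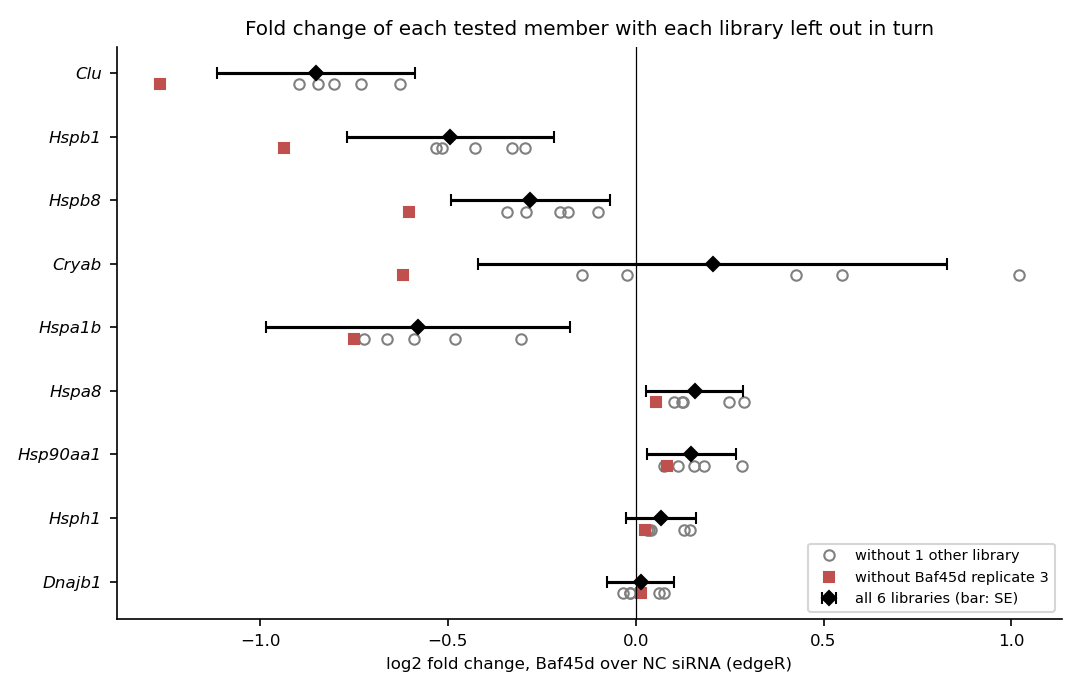
Log2 fold change of the 9 tested members, Baf45d over NC, from edgeR with all 6 libraries (black diamonds, bars are SE), without Baf45d replicate 3 (red squares) and without each of the other 5 libraries (open circles). Without Baf45d replicate 3, Clu lies at -1.27, Hspb1 at -0.94, Hspa1b at -0.75, Cryab at -0.62 and Hspb8 at -0.60, while Hsph1 and Dnajb1 stay between -0.03 and 0.14.

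The spread behind this lay within the Baf45d group. The SD of log2 CPM of Clu was 0.60 over the Baf45d libraries, the 98.7th percentile of genes at 5 CPM or more, and 0.093 over the NC libraries, the 53.0th percentile. Hspb1 had 0.61 over the Baf45d libraries and 0.11 over the NC libraries, and Hspb8 had 0.48 and 0.14. A wide spread over the Baf45d libraries goes with the shift for which Clu and Hspb1 were chosen. Their high values therefore follow from that choice and are a description only. The median gene had 0.154 over the Baf45d libraries and 0.088 over the NC libraries, so that the Baf45d libraries were the more varied group in general.

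The summed level of 10 muscle and contractile marker genes was also low in Baf45d replicates 1 and 2. It came to 117.7, 131.7 and 321.5 CPM in Baf45d replicates 1 to 3, against 225.3, 216.0 and 309.0 CPM in NC replicates 1 to 3. Acta2 and Myl9, which encode smooth muscle actin and a myosin light chain, supplied most of this sum. Des went differently, at 0.737, 1.25 and 0.218 CPM in Baf45d replicates 1 to 3. Cnn1 was at 2.10, 1.19 and 8.76 CPM in the same libraries. In NC replicates 1 to 3 Cnn1 was at 2.52, 2.91 and 7.61 CPM. Like Acta2, it was lowest in Baf45d replicates 1 and 2 and highest in both libraries numbered 3. The skeletal muscle regulator Myog had 5 counts in all 6 libraries together and none of the 10 was at 0. Of the list, 8 genes were tested, 2 with log2 fold changes above 0 and 6 below, with a median of -0.16.

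Other marker lists were also unequal between the Baf45d libraries. The 12 neuron genes summed to 1364, 1235 and 877 CPM in Baf45d replicates 1 to 3, against 1049, 957 and 977 CPM in NC replicates 1 to 3, the reverse order of Clu within the Baf45d group. Of the 10 endoderm genes 5 passed the filter on low counts, and Afp was at 0. The list summed to 229, 246 and 321 CPM in Baf45d replicates 1 to 3. In NC replicates 1 to 3 it summed to 282, 292 and 315 CPM. Lamb1, Gata6 and Dab2 supplied most of this sum. Lamb1 was at 110, 107 and 186 CPM in Baf45d replicates 1 to 3. In NC replicates 1 to 3 Lamb1 was at 143, 145 and 179 CPM. Gata6 was at 50.8, 56.8 and 60.6 CPM in Baf45d replicates 1 to 3, against 70.3, 74.5 and 64.2 CPM in NC replicates 1 to 3. Dab2 went differently, at 58.6, 71.0 and 59.5 CPM in Baf45d replicates 1 to 3, against 59.6, 61.5 and 57.8 CPM in NC replicates 1 to 3. Of the 5 tested endoderm genes, 2 had log2 fold changes above 0 and 3 below. The 12 mesenchyme and matrix genes, none of them at 0, summed to 2782 to 3082 CPM in Baf45d libraries and 3000 to 3364 CPM in NC libraries. The 9 astroglia genes, of which 7 passed the filter, summed to 490 to 534 CPM in Baf45d libraries and 473 to 520 CPM in NC libraries. The 10 neural progenitor genes summed to 1879 to 1956 CPM in Baf45d libraries and 1698 to 1928 CPM in NC libraries. The part of these cell types in the levels of Clu, Hspb1 and Hspb8 was not tested.

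The genes closest to Clu and Hspb1 over the 6 libraries were found by the root mean square difference of log2 CPM, each gene centred on its own mean, among 11711 genes at 5 CPM or more. For Hspb1 they were Galnt17 (0.0606), Dact2 (0.0729), Synpo (0.0866), Steap1 (0.0939) and Gadd45b (0.112). For Clu they were Col7a1 (0.161), Dact2 (0.224), Galnt17 (0.235), Synpo (0.236) and Hspb1 itself (0.241). Hspb8 ranked 35th for Hspb1 and 38th for Clu, whereas Hspa8, Hsp90aa1, Hsph1 and Dnajb1 ranked 5520th to 6559th for Clu and 5026th to 6459th for Hspb1. Galnt17 was at 9.53, 8.79 and 18.9 CPM in Baf45d replicates 1 to 3, against 17.7, 16.8 and 17.7 CPM in NC replicates 1 to 3, the same shape as Hspb1. Clu and Hspb1 were both chosen for shifts in these same libraries, and the closest genes for their likeness to them. Their shared shape therefore follows from the choice, and the ranks are a description only.

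**Figure D4:**
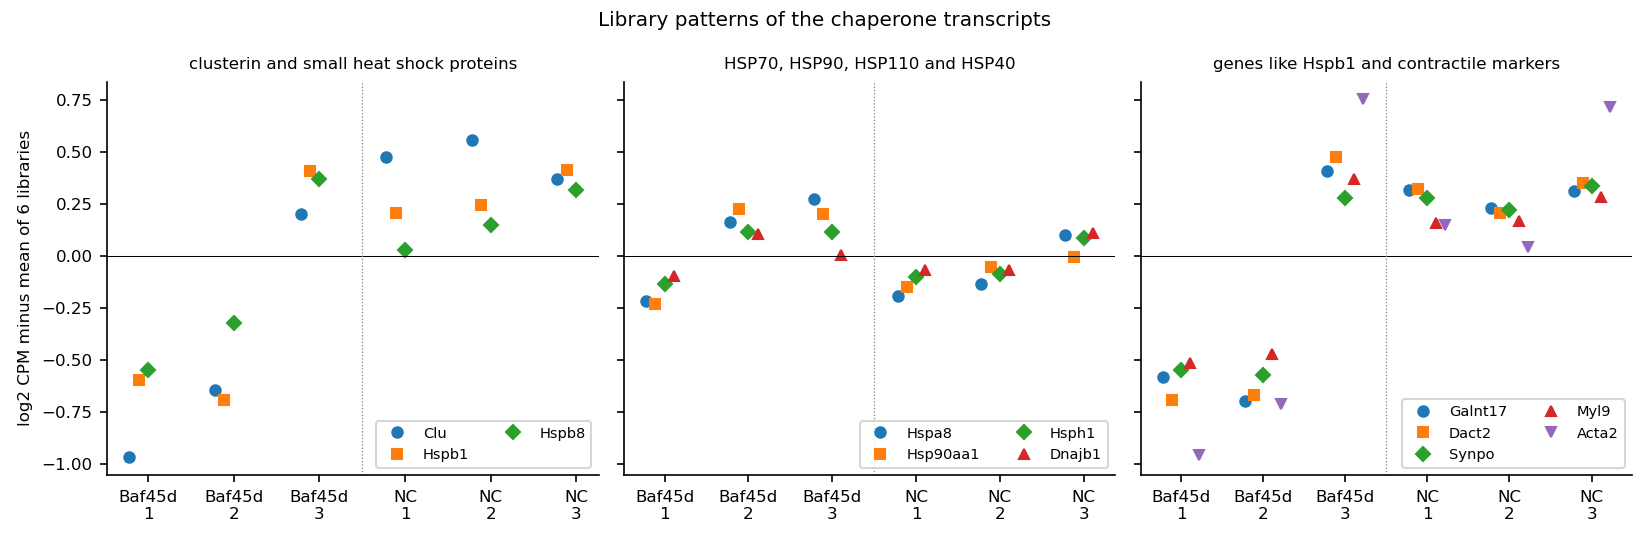
Log2 CPM of each gene minus its mean over the 6 libraries, with Baf45d replicates 1 to 3 left of the dotted line and NC replicates 1 to 3 right of it; panels show Clu and small heat shock proteins, the ATP-driven chaperones and their partners, and 3 genes closest to Hspb1 with the contractile markers Myl9 and Acta2. Values in Baf45d replicates 1 and 2 are low in the left and right panels, with Acta2 also high in both libraries numbered 3. The middle panel stays within a narrow band. The 3 genes closest to Hspb1 were chosen on these same libraries, and Myl9 and Acta2 after their values were seen. The likeness of the right panel to the left therefore follows from the choice of genes.

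The rest of the chaperone system was read from 10 lists. In each of them 0 genes passed the edgeR test in either direction, and list medians lay between -0.14 and 0.02 on the log2 scale. The HSP70 and HSP110 list had 14 genes tested, 5 with log2 fold changes above 0 and 9 below, and a median of -0.01, or -0.09 without Baf45d replicate 3. Its most abundant genes after Hspa8 were Hspa4, an HSP110 relative, at 644.7 ± 76.2 CPM in Baf45d libraries and 648.6 ± 35.3 CPM in NC libraries, and Hspa5, the chaperone BiP of the endoplasmic reticulum, at 606.4 ± 59.2 CPM in Baf45d libraries and 620.4 ± 27.7 CPM in NC libraries (SD, n = 3 each). Hspa13 had a log2 fold change of -0.08 (SE 0.08) and Hspa12b one of -0.10 (SE 0.14).

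All 17 HSP90 and co-chaperone genes were tested, 8 with log2 fold changes above 0 and 9 below. Stip1, which links HSP70 to HSP90, had a log2 fold change of 0.09 (SE 0.10), and Hsp90ab1, the constitutive HSP90, one of 0.06 (SE 0.08). Of 40 J-domain genes tested, 26 were above 0 and 14 below. Dnajc15 had a log2 fold change of 0.30 (SE 0.15) and Dnajb5 one of 0.18 (SE 0.10), and the groups overlapped for Dnajc15 and not for Dnajb5. All 3 Baf45d libraries were above all 3 NC libraries, as in Dnajb5, in 3.74% of all genes tested. Of the 11 nucleotide exchange genes, 4 were above 0 and 7 below, with Hspbp1 at -0.14 (SE 0.13) and Bag6 at -0.09 (SE 0.09) on the log2 scale. Of the 16 chaperonin and prefoldin genes, 8 were above 0 and 8 below, with the prefoldin subunits Pfdn2 at -0.23 (SE 0.12) and Pfdn6 at -0.22 (SE 0.14).

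Heat shock factors bind the promoters of these genes, and Hsf1 encodes the main one under stress. Hsf1 stood at 46.3 ± 4.21 CPM in Baf45d libraries and 48.0 ± 3.95 CPM in NC libraries (SD, n = 3 each). Hsf2 had a log2 fold change of 0.22 (SE 0.11) and Hsf4 one of -0.30 (SE 0.16), with edgeR adjusted p of 0.996 for both. Of 22 heat-inducible genes tested, 15 had log2 fold changes above 0 and 7 below, with a median of 0.02. Among them Ubb, a polyubiquitin gene, was at 729.2, 913.5 and 634.3 CPM in Baf45d replicates 1 to 3, against 599.1, 683.0 and 616.5 CPM in NC replicates 1 to 3. Serpinh1, the collagen chaperone HSP47, was at 298.6, 320.9 and 324.0 CPM in Baf45d replicates 1 to 3, against 347.2, 354.6 and 330.8 CPM in NC replicates 1 to 3. The groups overlapped for Ubb and not for Serpinh1, and both had an edgeR adjusted p of 0.996. All 3 Baf45d libraries were below all 3 NC libraries, as in Serpinh1, in 4.3% of all genes tested.

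Of 16 chaperones of the endoplasmic reticulum, 5 had log2 fold changes above 0 and 11 below, with a median of -0.03, or -0.10 without Baf45d replicate 3. P4hb, a protein disulfide isomerase, had -0.15 (SE 0.09) and Sdf2l1 had -0.20 (SE 0.14), with no overlap of the groups in either. All 3 Baf45d libraries were below all 3 NC libraries in 4.3% of all genes tested. Both genes were named for the smallest p in their list, so nothing is read from their lack of overlap. Outside the cell, 8 genes for extracellular chaperones and clusterin receptors were listed and 6 tested, 2 with log2 fold changes above 0 and 4 below. Their median was -0.14, or -0.42 without Baf45d replicate 3. The tested genes include Clu, which was chosen for such a shift, so nothing about the list is read from these medians. A2m, which encodes the extracellular chaperone alpha-2-macroglobulin, was at 16.1 ± 2.79 CPM in Baf45d libraries and 22.3 ± 3.95 CPM in NC libraries (SD, n = 3 each), a log2 fold change of -0.47 (SE 0.17) with an edgeR adjusted p of 0.996. Lrp8 encodes a receptor of clusterin and had a log2 fold change of 0.22 (SE 0.13). Lrp2, which takes up clusterin, followed the replicate number as Cryab did, at 68.2, 83.2 and 168.4 CPM in Baf45d replicates 1 to 3 and 78.0, 81.7 and 153.9 CPM in NC replicates 1 to 3.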

How the data were processed

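The authors deposited raw counts per gene and library for 54532 genes and FPKM values, per the file headers. Checked on the values, the deposited FPKM is the count over gene length and over a library depth that scales with the size factor of DESeq2. The authors' table also gives log2 fold changes and p-values, for which DESeq2 1.16.1 and the build mm9 are named, per the submitters' processing notes. Of 54409 genes, 98.3% had the same start and end in the GRCm38 annotation GENCODE M21, so coordinates are given as GRCm38. The deposited table of protein pairs holds a score per pair. Which aligner and counter were run, and whether strand was used, is not given in the sources used here.

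With edgeR 4.0.16 in R 4.3.3 the counts were fitted on group (TMM scaling, default filterByExpr, robust quasi-likelihood F test, two-sided, Benjamini-Hochberg over 16078 genes, threshold 0.05). Genes at 5 CPM or more had a median SE of 0.112 on the log2 scale. The procedure was tested on simulated data. The members and gene lists were chosen with earlier results of these data known. Named genes were the members, Dpf2 and the 2 other genes with the smallest p in each chaperone list. The 5 genes closest to Clu and to Hspb1 were also named. Gapdh, Hsf1, Hspa4, Hspa5, Lrp2, Acta2, Myl9, Myog, Des, Cnn1, Lamb1, Gata6 and Dab2 were named after their values were seen. So were genes at 0 counts and genes that share sequence or overlap. Same-numbered libraries deviated together over 16078 genes (r = 0.17, 0.13 and 0.35). Baf45d replicate 2 with NC replicate 1 gave 0.12, and Baf45d replicate 1 with NC replicate 2 gave 0.058. Numbers 1 and 2 were thus hardly told apart, and a pairing is not given by the labels. The main fit used group only, and a pairing by number entered only as the replicate block among the alternatives. Within each group, libraries differed beyond sampling noise (chi-square), so none was treated as a repeat deposit of another; this does not show that they came from separate cultures. Alternatives were other scalings and filters, DESeq2 1.42.0, limma-voom (limma 3.58.1), limma on log2 FPKM, a replicate block, and each library left out.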

Additional observations from a re-analysis of the deposited data

How the results depend on the processing

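The count of genes called, 0 with all libraries, was 10 with no filter on low counts (2 higher and 8 lower), 1 with the replicate block, 20 without both libraries numbered 3, and 0 to 44 with 1 library left out, 44 being without Baf45d replicate 3. With the replicate block the log2 fold changes were -0.93 for Clu, -0.57 for Hspb1 and -0.32 for Hspb8, and the block changed no call of a tested member. Clu was at -1.31 without both libraries numbered 3, and ranged from -1.27 to -0.63 with 1 library left out; Hspb1 ranged from -0.94 to -0.30, Hspb8 from -0.60 to -0.10, Cryab from -0.62 to 1.02, Hspa1b from -0.75 to -0.31, Hspa8 from 0.05 to 0.29, Hsp90aa1 from 0.07 to 0.28, Hsph1 from 0.03 to 0.14 and Dnajb1 from -0.033 to 0.076. Cryab was below 0 without Baf45d replicate 3 (-0.62), NC replicate 1 (-0.14) or NC replicate 2 (-0.024). Dnajb1, close to 0 throughout, was at -0.0030 with library totals in place of TMM, -0.033 without Baf45d replicate 2, and -0.016 without NC replicate 1 or NC replicate 2. The median of the small heat shock proteins was -0.48 without both libraries numbered 3 and ranged from -0.60 to -0.057 with 1 library left out. Medians ranged from -0.027 to 0.064 for HSP90 and its co-chaperones, 0.019 to 0.051 for J-domain proteins and -0.42 to -0.047 for extracellular chaperones. The small heat shock protein list holds Hspb1 and the extracellular list holds Clu, both chosen for such shifts. Of the values recomputed, 322 kept direction and side of the threshold or stayed within the replicate spread, and 7 moved beyond that spread. In 7 the fold change of Cryab or Dnajb1 turned sign, and 4 counts of called genes were higher than 0. Clu, Hspb1 and the list medians were judged by the spread only. Some list medians close to 0 also changed sign, and these are not among the 7 sign changes. The causes of these shifts were not tested. At a median SE of 0.112, small fold changes could not be told from 0, and Hspa1a and Hspa1b were limited by counts.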

Other observations

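Clu was the one member in the authors' deposited tables of terms and protein pairs. In the authors' deposited KEGG table it stood with A2m, Itgb2 and Pros1 under complement and coagulation cascades, a set of genes for blood proteins and their receptors, with 1 of these 4 genes up and 3 down, p = 0.0318 and an adjusted p of 0.598. In the authors' deposited Reactome table it was listed under 7 terms, of which Hemostasis had the lowest p (0.0278, adjusted p 0.177) with 16 listed genes, 7 up and 9 down. Of 455 pairs in the authors' deposited table of protein pairs, 5 include a member, each time Clu, with a score of 903 for A2m, 900 for Pros1, 630 for Mmp2, 602 for Stat3 and 568 for Ubb. The authors' deposited table gives Clu a log2 fold change of -0.85 and Hspb1 one of -0.49.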
